A study of Mus musculus with 4 samples.

Results

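The 8 genes described here encode proteins that package, copy and transcribe mitochondrial DNA (mtDNA): Tfam, Tfb1m, Tfb2m, Polrmt, Polg, Polg2, Ssbp1 and Top1mt. They were chosen by name for these functions and not by a rule on their measured values, although earlier results of these data were known. They are 8 of the 23337 genes listed for each library, and all 8 passed the filter on low counts. RNA-seq was carried out on polyadenylated RNA of mouse heart tissue, with 1 library in each of 4 groups. The comparison asks how the hearts differ when PIMT, a coactivator-binding protein encoded by Tgs1, is deleted in cardiomyocytes. Each library held the pooled RNA of 5 C57BL6/J hearts from male and female mice. The controls, PIMT fl/fl, were 2 or 6 months old and carried PIMT alleles with loxP sites around the exons to be deleted. The csPIMT-/- mice, of the same ages, carried the same alleles and in addition α-MyHC-Cre, a Cre transgene driven in cardiomyocytes by the α-myosin heavy chain promoter, with deletion starting in late embryonic life. Other cells of the heart were not targeted by this transgene, and their Tgs1 level was not measured separately. Since every csPIMT-/- heart also carried the transgene, the deletion and the transgene cannot be told apart. With 1 library in each group there are no replicates, and the intervals given below cover counting error only.

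The libraries held 29823073 to 40705783 reads on genes, and 17169 to 17349 genes had at least 1 read. Tgs1 was at 579.7 normalized counts in the 2-month control and 816 in the 6-month control, against 160.3 and 162 in csPIMT-/-, so the targeted gene was low in both libraries labelled csPIMT-/-. Its log2 difference over both ages in limma, the test described below, was -2.09. After subtraction of the trend with GC content it was -0.76 (limma adjusted p = 0.208), and with the GC trend of the coding sequence -0.44 (0.374). The 8 markers of cardiomyocytes were detected in all 4 libraries, with a summed level in csPIMT-/- of 0.984 of the control at 2 months and 0.808 at 6 months. In limma 1 of the 8 was called lower, beside 18.8% of all genes. The libraries stood apart in other markers. The summed level of 6 macrophage markers was 9316 and 23268 normalized counts in the controls and 30336 and 41934 in csPIMT-/-. Of the 6 genes, 5 passed the limma test as higher in csPIMT-/-, beside 12.4% of all genes. The 4 atrial markers summed to 2560 and 50594 in the controls and to 132951 and 29128 in csPIMT-/-. Markers of fat were 4.07 times and 1.60 times the control level at 2 and 6 months, and lung markers, which summed to 1170 normalized counts in the 2-month csPIMT-/- library and to 22 to 97.8 in the others, were 29.4 times and 4.45 times. Endothelial markers were 0.646 and 1.08 times the control level, with 2 of 6 genes called lower in limma. Fibroblast markers were 0.705 and 1.36 times, with 1 of 6 called lower and 3 of 6 more than 2-fold higher at 6 months. Over all genes, 18.8% were called lower and 15.8% were more than 2-fold higher at 6 months. None of these marker calls was kept when the trend with GC content was subtracted. The part of these cells or tissues in the values below was not tested.

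Mitochondria hold their own circular genome, which encodes core subunits of the respiratory chain together with the rRNAs and tRNAs needed to translate them. All proteins that maintain and transcribe it come from nuclear genes. TFAM binds and bends mtDNA, packs it into nucleoids, and with TFB2M recruits the RNA polymerase POLRMT to the promoters. POLG is the catalytic subunit of the mtDNA polymerase and POLG2 its accessory subunit, SSBP1 covers the single strands exposed during replication, and TOP1MT relaxes the torsion that copying and transcription leave in the circle. The heart, which depends on oxidative phosphorylation for contraction, is among the tissues with the most mtDNA for each cell. The 15 transcripts encoded by mtDNA itself that were looked for by symbol were not among the genes listed, so they were not analysed here.

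The nuclear promoters of genes of this kind are known for binding sites of the ETS factor GABP, also called NRF-2. RefSeq promoter sequences (GRCm38.p6) were found for 7 of the 8 genes, the exception being Top1mt. In the 250 bases before the RefSeq start, the 7-letter ETS core CCGGAAG, read on either strand, occurred in 5 of these 7 genes and in 6.91% of all 32851 promoter windows of the same length. The 30 bases around each match are shown 5′ to 3′ on the strand of the gene, with the core or its reverse complement CTTCCGG in capitals, because this core is shared by 5 of the genes.
Tfam, chr10:71238074-71238103 (-): tcctgccgcggaCCGGAAGtccgggcttcc
Ssbp1, chr6:40471409-40471438 (+): gggctccgtgcgCCGGAAGcgagccgctgg
Polg, chr7:79466294-79466323 (-): ggaggacctcacCCGGAAGtccctctgcac
Polrmt, chr10:79746607-79746636 (-): accctaagagcgCTTCCGGcagtcgcagaa
Polg2, chr11:106779549-106779578 (-): gcgggtgacgctCTTCCGGgggcgtggtct

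The core began 47 bases before the RefSeq start in Tfam and in Ssbp1, 43 bases before it in Polrmt, 38 in Polg and 29 in Polg2. In GENCODE M21, whose models start further upstream for 3 of them, the matches of Tfam, Ssbp1 and Polg lie in a 5′ untranslated exon, and those of Polrmt and Polg2 lie outside the gene. The NRF1-type motif GCGCATGC occurred in 1 of the 7 windows, that of Polrmt, and in 2.26% of all windows. Both motifs were searched after the sequences had been seen. The 5 genes with the ETS core include the pair with the lowest ratios in csPIMT-/- hearts, Tfam and Ssbp1, and the pair with the highest ratios at 2 months, Polg and Polg2.

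In csPIMT-/- hearts the 8 genes did not move together. Over both ages Tfam, Ssbp1 and Tfb2m fell, with log2 differences of -2.26, -2.37 and -1.53, and Polg rose, with 0.85, while Polrmt, Polg2, Tfb1m and Top1mt did not pass the test. The test was limma on log2(scaled count + 1) with terms for genotype and age over the 4 libraries, with Benjamini-Hochberg adjustment over 14935 genes. Its error rests on 1 residual degree of freedom, that is on how far the 4 libraries depart from additive effects, moderated over all genes. By this test 18.8% of all genes were lower and 12.4% higher in csPIMT-/-, beside 3 and 1 of the 8 genes. The median log2 difference of the 8 genes was -0.12, beside 0.026 over all genes tested. None of the 4 calls was kept when the trend of the differences with GC content was subtracted, nor when the variance was not modelled on the mean. In RNA of heart tissue, fewer cells of a type and less RNA per cell cannot be told apart.

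**Figure D1:**
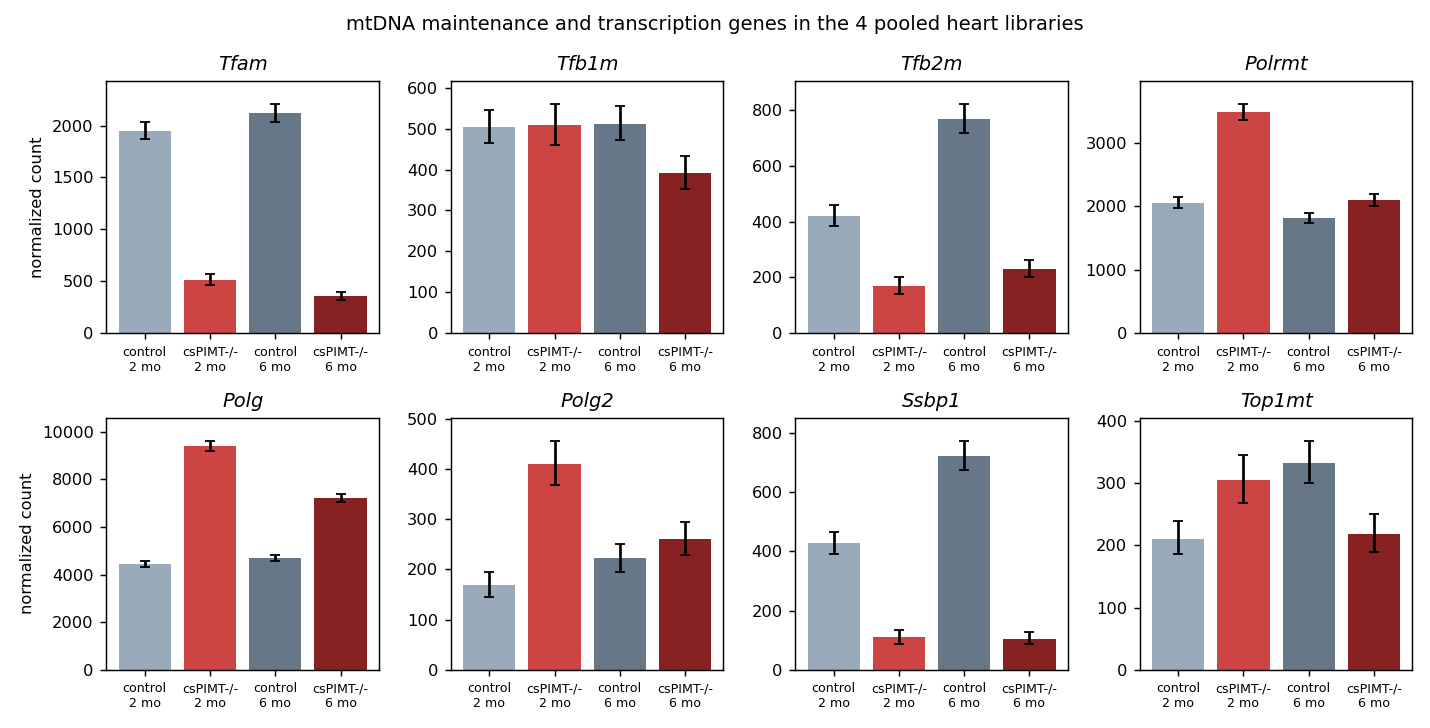
Normalized counts (linear axis from 0, a separate scale for each gene) of the 8 genes in the 4 pooled libraries, control in grey-blue and csPIMT-/- in red, at 2 and 6 months (mo). The bars are single libraries and the error lines are 95% intervals of counting error. Tfam, Tfb2m and Ssbp1 are lower in both csPIMT-/- libraries than in both controls, Polg is higher in both, the 6-month csPIMT-/- values of Polrmt and Polg2 are within counting error of 1 control, and in Tfb1m and Top1mt the genotypes overlap. How many of all genes separate the genotypes in this way was not counted.

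Tfam, the packaging protein and transcription activator of mtDNA (chr10:71225464-71238280 on the minus strand, GENCODE M21 on GRCm38 as for all 8 genes), had 1949 normalized counts in the 2-month control and 2122 in the 6-month control. In csPIMT-/- it had 513 and 355, and the values of the other genes follow in the same order of ages. Both csPIMT-/- libraries were far below both controls, and the controls of the 2 ages were close, with a ratio of 6 over 2 months of 1.04 (95% interval 0.982 to 1.1). Ratios here and below were scaled on the 2 libraries compared, whereas normalized counts were scaled by the authors over all 4, so that the ratios can depart by a few percent from those of the printed counts. The ratio of csPIMT-/- over control was 0.258 (0.232 to 0.287) at 2 months and 0.163 (0.145 to 0.182) at 6 months. Over both ages Tfam fell by 2.26 on the log2 scale (SE 0.28, limma adjusted p = 0.00828). After subtraction of the GC trend the difference was -1.39 (SE 0.25, limma adjusted p = 0.103), the furthest from 0 among the 8 genes on that scale. With the GC trend of the coding sequence instead, the difference was -1.05, and that of Ssbp1, at -1.22, was further from 0. Without the 6-month control the limma adjusted p was 0.0545, and without each other library in turn the call was kept.

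Tfb2m, the factor that opens the promoter for the polymerase (chr1:179528055-179546267, minus strand), had 422 and 770.4 normalized counts in the controls and 169 and 231 in csPIMT-/-. The 2 controls lay further apart here, with 6 over 2 months at 1.74 (1.56 to 1.95), but the lower control was still above both csPIMT-/- libraries. The ratios were 0.392 (0.322 to 0.475) at 2 months and 0.292 (0.251 to 0.339) at 6 months. Set against the control of the other age they were 0.213 and 0.537. Over both ages Tfb2m fell by 1.53 (log2, SE 0.33, limma adjusted p = 0.0212), and -0.27 remained after subtraction of the GC trend (SE 0.29, limma adjusted p = 0.586). The limma adjusted p was 0.0531 without the 2-month control, 0.187 without the 6-month control and 0.0709 without the 2-month csPIMT-/- library. Of its 50-base windows, 39.6% also occur in the pseudogene Gm1818, so its level depends on how the counting treated shared reads.

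Tfb1m is the paralog of Tfb2m that methylates the small mitochondrial rRNA (chr17:3519256-3557781, minus strand). It had 504 and 513 normalized counts in the controls and 509 and 391 in csPIMT-/-, so that 3 of the 4 libraries were nearly level and the 6-month csPIMT-/- library was the lowest. The ratios were 0.989 (0.870 to 1.12), whose interval includes no difference, and 0.743 (0.651 to 0.848). The log2 difference over both ages was -0.19 (SE 0.30, limma adjusted p = 0.644), which does not show that the genotypes were alike, and after subtraction of the GC trend it turned to 0.50 (SE 0.27, limma adjusted p = 0.310).

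Polrmt, the RNA polymerase of mitochondria (chr10:79736123-79746581, minus strand), had 2059 and 1817 normalized counts in the controls and 3484 and 2099 in csPIMT-/-. The 2-month csPIMT-/- library stood above the rest, while the 6-month one was within the range of counting error of the 2-month control. The ratios were 1.66 (1.57 to 1.75) at 2 months and 1.13 (1.06 to 1.20) at 6 months, and the latter was 0.999 against the 2-month control. The log2 difference over both ages was 0.48 (SE 0.24, limma adjusted p = 0.179) and turned to -0.28 after subtraction of the GC trend (SE 0.24, limma adjusted p = 0.498). Polrmt has the highest GC content of the 8 transcripts, 60.9%.

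Of the replication genes, Polg, the catalytic subunit of the mtDNA polymerase (chr7:79446231-79466362, minus strand), had the highest level in every library. It had 4447 and 4698 normalized counts in the controls and 9415 and 7225 in csPIMT-/-. The 2 controls were level (ratio 1.01, 0.971 to 1.05) and both csPIMT-/- libraries were above them, at 2.08 (2.00 to 2.15) times the control at 2 months and 1.5 (1.45 to 1.55) times at 6 months. Over both ages Polg rose by 0.85 (log2, SE 0.23, limma adjusted p = 0.0387). The call was lost with edgeR on the recovered reads (quasi-likelihood, adjusted p = 0.0531) and in limma without the 2-month control (0.155), the 6-month control (0.133) or the 2-month csPIMT-/- library (0.0759), and 0.50 was left after subtraction of the GC trend (SE 0.22, limma adjusted p = 0.254). The opposite-strand gene Fanci shares 8.74% of its 50-base windows and had 14 to 85 reads in a library. How the counting treated reads in the shared windows is not known.

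Polg2, the accessory subunit that holds the polymerase on its template (chr11:106768253-106779537, minus strand), had 169 and 223 normalized counts in the controls and 411 and 260.1 in csPIMT-/-. It was higher in csPIMT-/- at 2 months, at 2.39 (1.99 to 2.86) times the control. At 6 months the ratio was 1.14 and its interval, 0.952 to 1.36, included no difference. The log2 difference over both ages, 0.74, was close to that of Polg, but its standard error of 0.41 was larger and it did not pass the test (limma adjusted p = 0.206). On the scale corrected for GC content it was 0.39 (SE 0.40, limma adjusted p = 0.571).

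Ssbp1, the single-strand DNA-binding protein of the replication fork (chr6:40471352-40484700, plus strand), had 427 and 723 normalized counts in the controls and 109.7 and 105 in csPIMT-/-. The csPIMT-/- libraries were level with each other and below both controls. The ratios were 0.252 (0.198 to 0.316) at 2 months and 0.142 (0.114 to 0.174) at 6 months, and 0.148 and 0.242 against the control of the other age. The controls differed among themselves, at 1.62 (1.44 to 1.81) for 6 over 2 months. Over both ages Ssbp1 fell by 2.37 (log2, SE 0.39, limma adjusted p = 0.0116), and after subtraction of the GC trend the difference was -0.92 (SE 0.34, limma adjusted p = 0.204). Without the 6-month control the limma adjusted p was 0.0753.

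Top1mt, the mitochondrial topoisomerase (chr15:75657035-75678800, minus strand), had 211 and 333 normalized counts in the controls and 305 and 218 in csPIMT-/-. The genotypes overlapped, and their order was opposite at the 2 ages. The ratio was 1.41 (1.18 to 1.69) at 2 months and 0.639 (0.537 to 0.758) at 6 months, beside 1.51 (1.28 to 1.78) between the 2 controls. The log2 difference over both ages was -0.05 (SE 0.42, limma adjusted p = 0.939), and -0.61 with the GC trend subtracted (SE 0.40, limma adjusted p = 0.400).

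**Figure D2:**
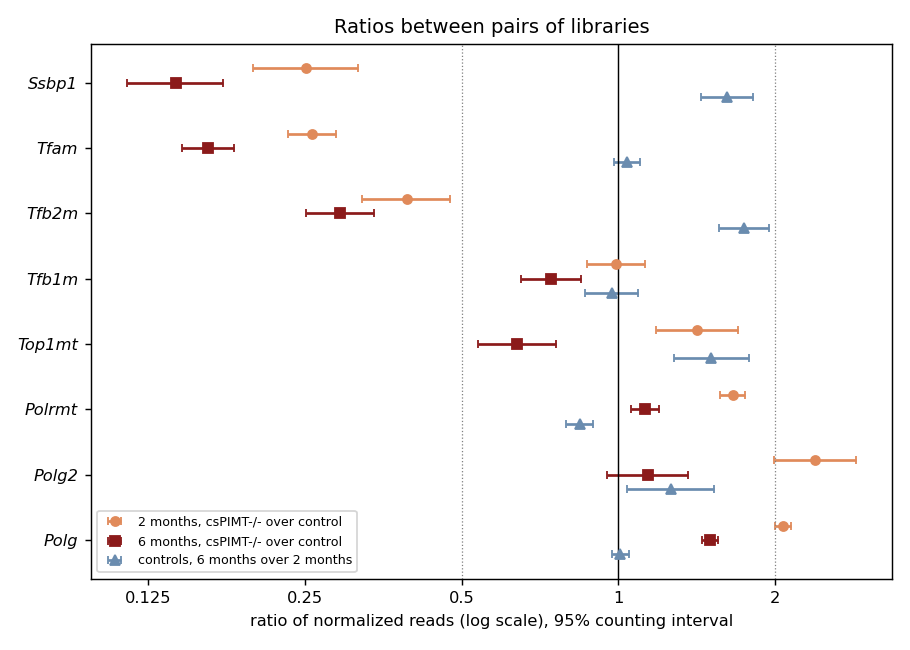
Ratio of normalized reads for each of the 8 genes on a log axis, for csPIMT-/- over control at 2 months (orange circles), at 6 months (dark red squares) and for the control of 6 over 2 months (blue triangles), with lines for 95% intervals of counting error and dotted lines at 2-fold. Ssbp1, Tfam and Tfb2m lie below 0.5 at both ages, and in Tfb2m, Ssbp1 and Top1mt the 2 controls differ by 1.5 to 1.7 times.

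By size alone, without a test, 3 of the 8 genes (Tfam, Ssbp1, Tfb2m) were more than 2-fold lower in csPIMT-/- at 2 months, beside 22.9% of all genes, and 2 (Polg, Polg2) were more than 2-fold higher, beside 16.3%. At 6 months the same 3 genes were more than 2-fold lower, beside 25.5% of all genes, and 0 were higher, beside 15.8%. Between the controls 0 of the 8 genes were past 2-fold, beside 5.0% of all genes lower and 8.06% higher at 6 months. The median log2 ratio of the 8 genes was 0.24 at 2 months and -0.54 at 6 months, beside -0.03 and -0.04 over all genes tested. The ratio of each of the 8 genes to the control of its own age was smaller at 6 months than at 2 months, which was not tested. How many of all genes show this order was not counted. Against the control of the other age the order turned for Tfb2m (0.213 and 0.537), Ssbp1 (0.148 and 0.242) and Top1mt (0.884 and 1.01). It held for the other members. Against both controls summed the order of Tfb2m turned, to 0.274 at 2 months and 0.380 at 6 months.

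The order of the levels differed between the genotypes. On a scale per length (RPKM, from reads on genes and the length of the longest coding transcript), Polg was highest in all 4 libraries, at 16.5 and 16.7 in the controls and 32.7 and 24.5 in csPIMT-/-. Tfam was at 13.6 and 14.2 in the controls, near Polrmt at 15.9 and 13.5. In csPIMT-/- Polrmt was at 25.2 and 14.9 and Tfam at 3.35 and 2.26, below Tfb1m, Polg2 and Top1mt in both. Ssbp1 was lowest in both csPIMT-/- libraries, at 0.679 and 0.635, with a transcript of 4398 bases used. These lengths are uncertain for the genes with several coding transcripts, whose shortest coding one has 579 bases for Ssbp1, 149 for Polg (7837 used), 472 for Tfam (4167 used) and 1287 for Polrmt (3755 used), so the order among them depends on the transcript chosen. In the 2-month control Polg2 at 3.25 and Top1mt at 3.22 were not distinguishable at this depth. The 8 genes together took 0.0289% to 0.0406% of the reads on genes.

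The 3 genes that fell and the 1 that rose also lay apart in base composition. Over all 14754 genes with a GC value, Spearman's rho between the log2 difference in limma and the GC content of the transcript was 0.661, and over the 8 genes it was 0.762. These are descriptions across genes of the same 4 libraries, and genes are not independent replicates. The median difference was -1.30 for genes with under 45% GC and 0.63 for those over 52%. Ssbp1 (41.0%), Tfb2m (42.5%) and Tfam (44.9%) are in the first class, and Polg (52.7%), Polg2 (52.8%), Top1mt (55.2%) and Polrmt (60.9%) in the second, with Tfb1m (45.9%) between. The difference of Tfb1m lay above the trend at its GC content and that of Tfam below it.

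**Figure D3:**
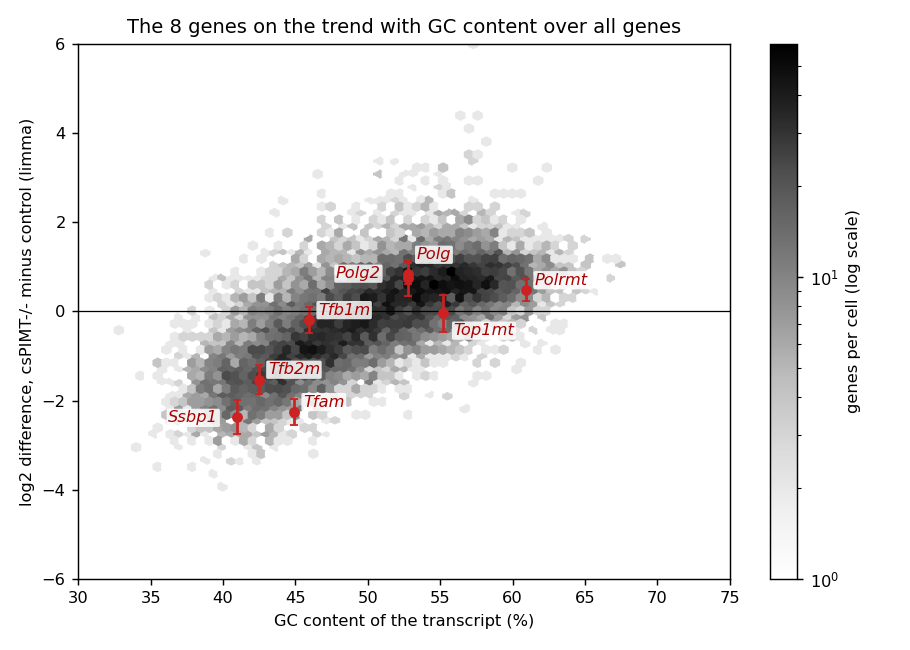
log2 difference over both ages in limma (csPIMT-/- minus control, linear axis in log2 units) against the GC content of the transcript in percent for all genes with a value, as hexagons shaded by the number of genes on a log scale (differences beyond 6 are drawn at the edge), with the 8 genes in red and lines for their standard errors. Tfam, at 44.9% GC and -2.26, lies below the main band and Tfb1m, at 45.9% and -0.19, on its upper side.

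With the trend subtracted, the ratio of Tfam was 0.453 at 2 months and 0.321 at 6 months, and that of Ssbp1 0.660 and 0.418. That of Tfb2m came to 0.887 and 0.761. Of the genes that had been higher at 2 months, Polg came to 1.69 and 1.16, Polg2 to 1.93 and 0.88, and Polrmt to 1.0 and 0.669. Top1mt came to 0.976 and 0.435. Tfam was then the only gene of the 8 under 0.5 at both ages, but with the GC trend of the coding sequence its ratios were 0.554 and 0.416, and no gene was under 0.5 at both ages. On this scale the share of all genes lower by over 2-fold was 10.9% at 2 months and 12.7% at 6 months, and the share higher by over 2-fold was 14.5% and 13.6%.

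**Figure D4:**
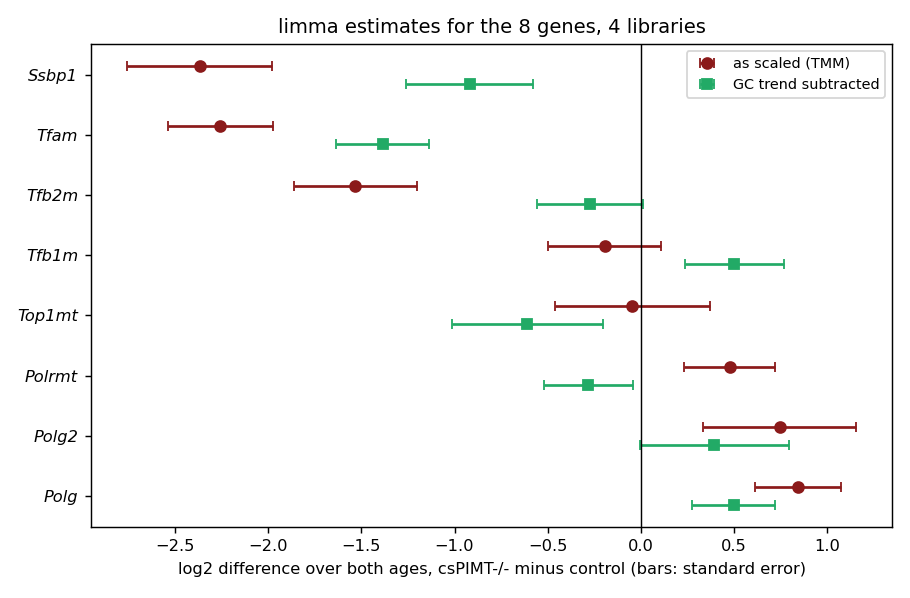
log2 difference over both ages (csPIMT-/- minus control) of the 8 genes in limma, as scaled (dark red circles) and after subtraction of the GC trend (green squares), with lines for 1 standard error. Tfam moves from -2.26 to -1.39 and Tfb2m from -1.53 to -0.27, and Polrmt and Tfb1m cross 0.

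Among 12278 genes with at least 100 scaled counts in 2 libraries, those with the pattern most like Tfam were Tspan2, a tetraspanin, with a root mean square difference of 0.030 in centred log2 values over the 4 libraries, Meox2, a homeobox factor, at 0.078, and Atad2, a chromatin ATPase, at 0.083. Of the other 7 genes Ssbp1 was nearest to Tfam at 0.284, and it ranked 236 among all genes. Tfb2m followed at 0.566 and the rest were at 1.03 or more. The nearest pair within the 8 genes was Polg and Polg2, the subunits of 1 enzyme, at 0.157, and the farthest was Polg and Ssbp1 at 1.63. With 4 libraries such likeness describes a single contrast of genotypes for the most part.

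The genes that work around these 8 were followed in 6 lists, with 68 genes tested. Of these 27 fell, 7 rose and 34 did not pass the limma test, beside 18.8% of all genes lower and 12.4% higher, against which the counts of the single lists below also stand, and their median log2 difference was -0.17, or -0.19 after subtraction of the GC trend. The calls in the lists are those of the same fit and none of them is kept under the GC trend either. Of 14 partners in mtDNA replication and repair, 1 fell and 1 rose. The primase-polymerase Primpol (listed as Ccdc111) fell by 1.58 (SE 0.43, limma adjusted p = 0.0387), with 162 and 237 normalized counts in the controls and 55.5 and 75.9 in csPIMT-/-. The nuclease Endog rose by 0.84 (SE 0.25, limma adjusted p = 0.0470). After subtraction of the GC trend the differences were -0.37 for Primpol and 0.04 for Endog. The replicative helicase Twnk, named after its value was seen, had a difference of 0.06 (SE 0.26, limma adjusted p = 0.871).

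Of 12 genes of nucleotide supply to mitochondria, 3 fell and 2 rose. Sucla2, a subunit of succinyl-CoA synthetase, had 16237 and 27667 normalized counts in the controls and 3601 and 2399 in csPIMT-/-, and fell by 2.86 on the log2 scale (SE 0.35, limma adjusted p = 0.00828). Mutations of it are known to deplete mtDNA. Rrm2b, the ribonucleotide reductase subunit of resting cells, fell by 1.81 (limma adjusted p = 0.0202), and Slc25a36, a pyrimidine nucleotide carrier, by 1.60 (limma adjusted p = 0.00959). The mitochondrial thymidine kinase Tk2 rose by 1.34 (limma adjusted p = 0.0169), with 435 and 441 normalized counts in the controls and 1023 and 1218 in csPIMT-/-. Slc25a33, another pyrimidine nucleotide carrier, rose by 0.89 (limma adjusted p = 0.0360). After subtraction of the GC trend the differences were -1.71 for Sucla2, -0.19 for Rrm2b, -0.12 for Slc25a36, 1.08 for Tk2 and 0.43 for Slc25a33.

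The list of mitochondrial transcription elongation and termination had a median of -1.32, and 4 of its 6 genes tested fell and 1 rose. Tefm, the elongation factor of POLRMT (listed as 1110002N22Rik), fell by 1.08 (limma adjusted p = 0.0412). The mTERF family members Mterf2 (listed as Mterfd3) and Mterf3 (Mterfd1) fell, with log2 differences of -2.22 and -1.57 (limma adjusted p = 0.0168 and 0.0120). Mterf1a (Mterf) fell by 2.77 (limma adjusted p = 0.0385) but rests on few reads, with 37.2 and 50.1 normalized counts in the controls and 4.93 and 6.24 in csPIMT-/-, and it has a close copy in the mouse genome with which it may share reads. Mrpl12, a ribosomal protein that also binds POLRMT, rose by 1.28 (limma adjusted p = 0.0174). After subtraction of the GC trend the median of the list was -0.26.

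Of 19 genes that process or degrade mitochondrial RNA, 10 fell and 0 rose, with a median of -1.21, or -0.24 after subtraction of the GC trend. Trmt10c (listed as Rg9mtd1), a subunit of mitochondrial RNase P, had 921 and 1338 normalized counts in the controls and 194 and 254 in csPIMT-/-, and fell by 2.33 (limma adjusted p = 0.00828). Slirp (1810035L17Rik), which stabilizes mitochondrial mRNA together with Lrpprc, fell by 2.17 (limma adjusted p = 0.00870). Ptcd3 and Fastkd1, RNA-binding proteins of mitochondria, fell, with log2 differences of -2.0 and -1.72 (limma adjusted p = 0.0130 and 0.0116).

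Of 8 nucleoid-associated proteins, 3 fell and 2 rose, all 5 of them proteases or chaperones. The median of the list was 0.29, and it turned to -0.29 after subtraction of the GC trend. The chaperone Hspd1 had 8723 and 10142 normalized counts in the controls and 2076 and 1234 in csPIMT-/-, and fell by 2.56 (limma adjusted p = 0.00810). Its difference was -2.02 after subtraction of the GC trend. Clpx, the unfoldase subunit of the ClpXP protease, and the chaperone Hspa9 fell, with log2 differences of -1.5 and -1.1 (limma adjusted p = 0.00957 and 0.0310). The peptidase subunit of the same protease, Clpp, rose by 0.89 (limma adjusted p = 0.0291), and so did Lonp1, the protease that degrades free TFAM, by 0.86 (limma adjusted p = 0.0347). After subtraction of the GC trend the differences were -0.59 for Clpx, -0.39 for Hspa9, 0.20 for Clpp and 0.19 for Lonp1.

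Of 9 nuclear regulators of these genes, 6 fell and 1 rose, with a median of -1.07, or -0.40 after subtraction of the GC trend. Gabpa, the DNA-binding subunit of the ETS factor whose core motif is shown above, had 2389 and 3266 normalized counts in the controls and 774 and 799 in csPIMT-/-, and fell by 1.83 (SE 0.24, limma adjusted p = 0.00841). Its partner subunit Gabpb2 fell by 1.08 (limma adjusted p = 0.0240). Ppargc1a, the coactivator PGC-1α, fell by 1.55 (limma adjusted p = 0.0125), with 6755 and 4585 normalized counts in the controls and 1730 and 2104 in csPIMT-/-. Yy1 fell by 1.09 (limma adjusted p = 0.0294), and its difference was -1.16 after subtraction of the GC trend. The nuclear receptor Esrra, a partner of PGC-1α, rose by 0.75 (limma adjusted p = 0.0422). Gabpa, Gabpb2, Ppargc1a and Esrra came to log2 differences of -0.43, -0.40, -0.19 and -0.03 with the GC trend subtracted. Nrf1, named after its value was seen, had a difference of 0.14 (SE 0.24, limma adjusted p = 0.688).

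**Figure D5:**
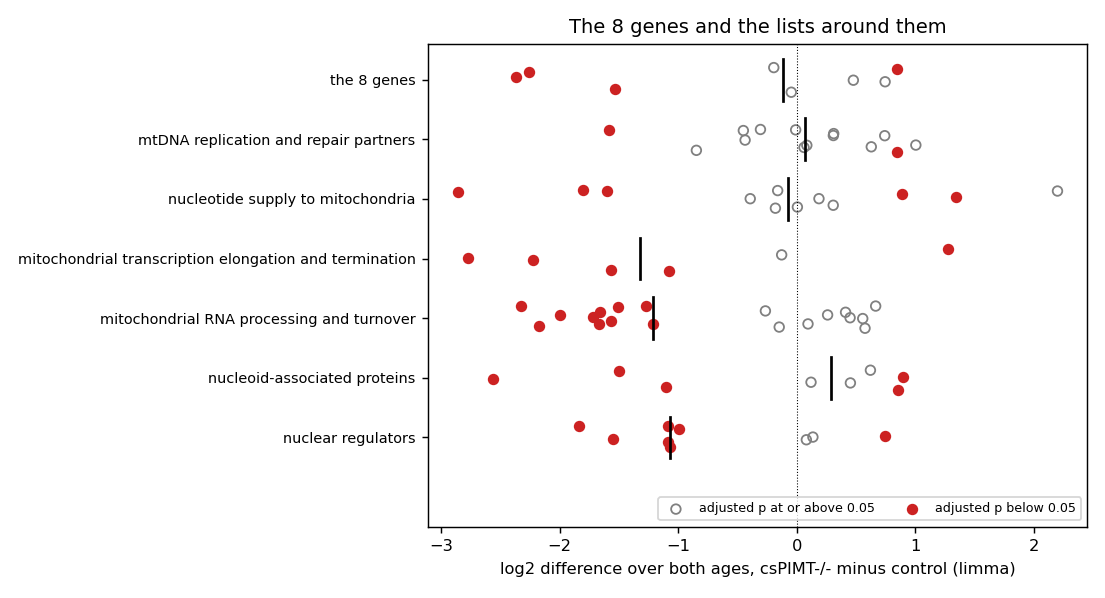
log2 difference over both ages in limma (csPIMT-/- minus control) of each gene tested in the 8 genes and the 6 lists around them, filled red where the adjusted p is below 0.05 and open where it is not, with black lines at the list medians and a small vertical scatter within a list for legibility. The medians of the transcription elongation and termination, RNA processing and turnover, and nuclear regulator lists are at -1.32, -1.21 and -1.07, and the other medians are between -0.12 and 0.29.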

How the data were processed

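RNA of 5 hearts was pooled for each of 4 directional, oligo-dT selected libraries read as single ends. Per their methods and processing notes, the authors checked reads with FastQC, trimmed adapters, removed poor and ribosomal reads, aligned to mm10 with STAR, counted with HTSeq 0.6.1p1 on a UCSC annotation and normalized with DESeq2. The strand setting is not given in the sources used here. The deposited signal is 1 normalized count per gene and library. The values of the 6-month csPIMT-/- library are labelled as read counts, unlike the others. In that library 1 read had a value of 1.04, so its values were treated as normalized too. All values (100.0%) were whole multiples of the value of 1 read, within 1e-06 reads, so that whole reads were recovered.

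limma 3.58.1 (R 4.3.3) was fitted to log2(scaled count + 1) after TMM scaling, with genotype, age and a mean trend of the variance. Genes needed 10 scaled counts in 2 libraries and 15 in total, and an adjusted p of 0.05 was the threshold. Ratios at 1 age used median-of-ratios size factors, at least 10 reads in 1 library and 95% Clopper-Pearson intervals, with no p. There were no replicate libraries, so the p-values weigh the genotype difference against how far the libraries depart from additive effects. limma moderated this error over all genes (1 residual and 5.04 prior degrees of freedom). The GC trend was a lowess curve (span 0.3) on the longest coding transcript in GENCODE M21 (GRCm38), matched for 97.9% of genes. edgeR 4.0.16 and DESeq2 1.42.0 on recovered reads were alternatives. The fits were tested on simulated data. The labels give no batch.

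The 8 genes, the lists and the tests were chosen with earlier results of these data known. Named besides the 8 were, from each list, up to 4 called genes in each direction with the largest difference, and the 3 genes most like Tfam. Twnk and Nrf1 were named outside this rule, after their values were seen.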

Additional observations from a re-analysis of the deposited data

Results flagged for a closer look

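Top1mt had ratios of csPIMT-/- over control on opposite sides of 1 at the 2 ages, 1.41 at 2 months and 0.639 at 6 months. The difference between the ages was not tested, since each group has 1 library. Against the control of the other age the ratios were 0.884 and 1.01, and against both controls summed 1.08 and 0.788. After subtraction of the GC trend they were 0.976 and 0.435.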

How the results depend on the processing

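The calls of the 8 genes (3 lower, 1 higher) and of all genes (2801 lower, 1858 higher) rest on the scale and on how the variance was modelled. With the GC trend of the transcript or of the coding sequence subtracted (the latter added after the data were seen), and with no mean trend of the variance, limma called 0 of the 8 genes and 0 of all genes, with 3566, 3820 and 5944 genes at an unadjusted p under 0.05 and smallest adjusted p-values of 0.101, 0.0676 and 0.0623. The edgeR quasi-likelihood test on recovered reads called 2508 genes lower and 1619 higher, and 0 of the 8 higher, and DESeq2 called 2994 and 2201. Without each library in turn, with genotype alone as a term, 0 to 3 of the 8 genes were lower, 0 to 1 higher, and 98 to 2524 of all genes lower and 162 to 1595 higher. Without the 2-month control the counts over all genes were 1089 and 181, without the 6-month control 98 and 162, and without the 6-month csPIMT-/- library 2524 and 1130. The calls of Tfam and Ssbp1 were lost without the 6-month control, that of Tfb2m without either control or the 2-month csPIMT-/- library, and that of Polg without the same 3. The cause was not tested.

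The log2 difference of Tfb1m turned to 0.50 and 0.85 with the GC trend of the transcript and of the coding sequence subtracted and to 0.0023 without the 6-month csPIMT-/- library (leaving out each library gave -0.37 to 0.0023), that of Polrmt to -0.28 and -0.13 on the same GC scales, and that of Top1mt to 0.28 without the 6-month control and 0.20 without the 6-month csPIMT-/- library (range -0.37 to 0.28). At 2 months the genes more than 2-fold higher went from 2 to 0 against the control of the other age and with the GC trend subtracted, and to 1 against both controls summed and with the coding-sequence trend. Those more than 2-fold lower went from 3 to 1 with the GC trend and to 0 with that of the coding sequence. The median log2 ratio at 2 months, 0.24, was -0.12 against the control of the other age and -0.015 with the GC trend, and that at 6 months, -0.54, was -0.20 against the control of the other age.

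Over the alternative settings, 92 differences of the 8 genes kept their direction and side of the threshold. A further 21 kept their direction but lost the call, and 7 turned in direction. The 92 include differences of the 4 genes not called in the main fit, which had no call to lose. None of the settings that changed the pseudocount, the filter on low counts, the scaling to median-of-ratios or the age term changed a call of the 8 genes. No paired analysis was possible because each group has 1 library and the labels give no replicate numbers by which single mice or pools could be paired. Age was a term of the reported fit, and with genotype alone 2746 genes were lower and 1891 higher. The depth limits Ssbp1 most, with 89 and 101 reads in the csPIMT-/- libraries.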

Other observations

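The lists around the 8 genes were also followed at each age by size alone, without a test. Over all genes, 22.9% were more than 2-fold lower and 16.3% higher at 2 months, and 25.5% and 15.8% at 6 months. Of 19 genes of mitochondrial RNA processing and turnover, 10 were more than 2-fold lower in csPIMT-/- at 2 months and 10 at 6 months, and 0 were more than 2-fold higher at either age. Of 9 nuclear regulators, 5 and 4 were lower and 0 higher. Of 14 partners in replication and repair, 1 was lower and 2 higher at 2 months, and 3 were lower and 0 higher at 6 months. Over the 68 genes of the 6 lists, 24 were lower and 5 higher at 2 months, and 27 and 3 at 6 months, with median log2 ratios of -0.07 and -0.35.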
